A study of Caenorhabditis elegans with 6 samples.

Results

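The genes described here are *hif-1*, *aha-1*, *egl-9*, *rhy-1* and *swan-1*, which encode the hypoxia-inducible transcription factor of *C. elegans* and 3 proteins that restrain it. They were chosen by their WormBase gene symbols, and all 5 were found among the 46778 gene identifiers counted in each library. RNA was sequenced from whole, age-synchronized young adults of 2 genotypes, with 3 biological replicates each: wild type animals (N2) and *vhl-1* mutants, which the study lists as the strain *vhl-1(ok161)*, a null allele carried by all cells of the animal. Animals of both genotypes were kept at the same temperature without starvation, and no other allele, transgene or treatment was named for these libraries. A mutant group of this kind is 1 strain, so an effect of *vhl-1* and of any other difference between the strains cannot be told apart.

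HIF-1 is a transcription factor of the basic helix-loop-helix PAS class that binds DNA as a dimer with AHA-1, the worm ortholog of the aryl hydrocarbon receptor nuclear translocator ARNT. When oxygen is present, the dioxygenase EGL-9 hydroxylates a proline of HIF-1, and VHL-1, the substrate receptor of a cullin ubiquitin ligase, binds the hydroxylated protein and directs its degradation. RHY-1, a membrane protein of the acyltransferase family, acts upstream of EGL-9 through the cysteine synthase-like protein CYSL-1, which binds and inhibits EGL-9. SWAN-1, a WD-repeat protein, binds EGL-9 and also restrains HIF-1. The genes *egl-9* and *rhy-1* are known targets of HIF-1 and so belong to a negative feedback loop, while the oxygen signal reaches HIF-1 through the stability of its protein.

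The *vhl-1* libraries were first checked for the targeted gene. In wild type animals 501, 442 and 373 reads fell on *vhl-1*, and in the mutants 7, 3 and 1 reads. The log2 fold change of *vhl-1* mutants over wild type animals, written log2FC from here on, was -7.14 for this gene with a standard error (SE) of 0.40 (adjusted p = 0.00066 in edgeR), so each library matched its label. Reads on genes numbered between 52462303 and 82910026 per library. The 5 genes were covered by 889 to 21688 reads per library, so that counting error alone was at most 3.35% of a value. Levels are given as CPM, read counts relative to the TMM-normalized library size. Markers of germline and stage, listed to check the labelled young adult animals, were present in every library. The summed level of 6 yolk protein genes lay between 4879 and 17321 CPM in wild type animals and between 796 and 6354 CPM in *vhl-1* mutants. The sums of 12 oocyte and eggshell genes lay between 888 and 2957 CPM and between 557 and 2545 CPM in the same order. Those of 9 sperm genes lay between 307 and 503 and between 240 and 496 CPM, and those of 8 larval molting genes between 1445 and 3979 and between 2943 and 4013 CPM. No gene of these 4 lists was at 0 in all libraries. Of their 35 genes, 0 passed the adjusted threshold of edgeR's quasi-likelihood test or of limma-voom. The yolk protein genes had a median log2FC of -1.76, and 3 of the 6 had an unadjusted p under 0.05 in edgeR, against 0 in the other 3 lists, while DESeq2 called 1 of the 6, *vit-1*, as lower. The part of these shifts in the results below was not tested.

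Of the 5 genes, 3 were more highly expressed in *vhl-1* mutants and 2 did not pass the test. The acyltransferase gene *rhy-1* rose 7.90-fold, the hydroxylase gene *egl-9* rose 3.99-fold and the dimer partner *aha-1* rose 1.88-fold. The transcription factor gene *hif-1* and the gene *swan-1* had changes of 0.923-fold and 1.13-fold that did not pass. Of the dimer's own subunits, *aha-1* thus passed and *hif-1* did not. Of the 16596 genes tested with edgeR's quasi-likelihood test, 1.25% passed an adjusted p-value of 0.05 in either direction and 0.874% were higher in *vhl-1* mutants, beside 3 of these 5 genes. DESeq2 also called 3 of the 5, where it called 3.45% of all genes, 1.78% as higher and 1.67% as lower. The CPM values of the genotypes did not overlap in 3 of the 5 genes, and over all genes tested they did not overlap in 14.4%, being higher in mutants in 6.97%. The animals were measured whole, so that a change in RNA per cell and a change in the number of cells of a type cannot be told apart.

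**Figure D1:**
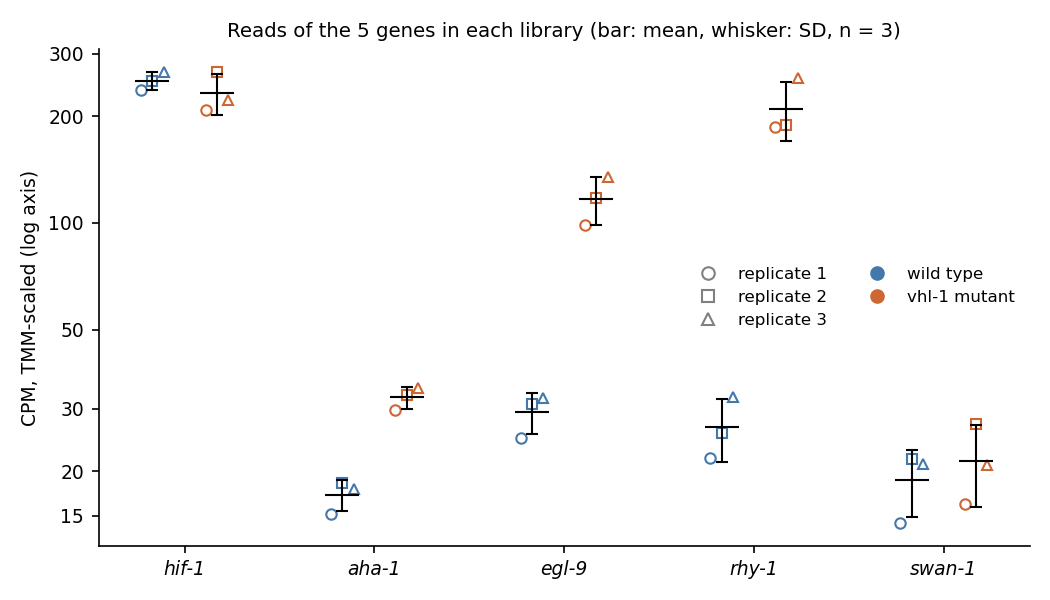
CPM (TMM-scaled, log axis) of the 5 genes in each library, with wild type animals in blue and *vhl-1* mutants in orange, symbols for the replicate, and bars for mean ± SD (n = 3). The 3 mutant libraries lie above the 3 wild type libraries for *aha-1*, *egl-9* and *rhy-1* (185.7 to 255 against 21.8 to 32.3 CPM for *rhy-1*), and the groups overlap for *hif-1* and *swan-1*.

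*hif-1* (WBGene00001851) is found on chromosome V, plus strand, from 20780407 to 20785260 in WBcel235, with 6 annotated transcripts. It encodes the oxygen-regulated subunit of the dimer. Its level was 237, 251 and 266 CPM in the 3 wild type libraries and 208, 267 and 222 CPM in the 3 *vhl-1* libraries. The highest and the lowest of the 6 values both came from *vhl-1* mutants, and the groups overlapped. The means were 251 ± 14.5 CPM (SD, n = 3) and 232 ± 30.8 CPM (SD, n = 3). Its log2FC was -0.12 with an SE of 0.12 (adjusted p = 0.94 in edgeR), with a 95% interval from -0.39 to 0.16, or 0.762-fold to 1.12-fold. A rise in *hif-1* mRNA above 1.12-fold therefore lay outside the interval, whereas a fall to 0.762-fold did not. In absolute size, 44.8% of all genes tested changed by less than *hif-1*. No annotated gene overlaps *hif-1*, and its neighbor on the left, *F38A6.4*, had a log2FC of -0.24 (adjusted p = 0.97 in edgeR).

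*aha-1* (WBGene00000095) lies on the minus strand of chromosome I, from 10193925 to 10196997, with 1 annotated transcript. AHA-1 is the constitutive partner that HIF-1 shares with other PAS proteins. The wild type libraries had 15.2, 18.5 and 17.8 CPM and the *vhl-1* libraries 29.8, 32.8 and 34.3 CPM. All mutant libraries were above all wild type libraries, the lowest mutant value being 1.61 times the highest wild type value. The means of *aha-1* were 17.2 ± 1.75 CPM (SD, n = 3) and 32.3 ± 2.27 CPM (SD, n = 3). The log2FC of *aha-1* was 0.91 (SE 0.12, 95% interval 0.63 to 1.20, adjusted p = 0.024 in edgeR). Among all genes tested, 3.29% had a higher log2FC. The size of this change was stable when a library was left out, from 0.83 to 0.97, but the call was not: *aha-1* passed in 1 of the 6 fits, without the first wild type library (adjusted p = 0.045), and missed the threshold without any other library, with edgeR adjusted p up to 0.17. *aha-1* passed in each of the 8 other fits tried, with an adjusted p of 2.06e-07 from DESeq2 and at most 0.027.

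The position of *aha-1* allows some sharing of reads, because its exons overlap those of *mrpl-34*, a mitochondrial ribosomal protein gene on the opposite strand, by 75 bases or 4.68% of its exonic length. *mrpl-34* had 28.8 ± 1.40 CPM (SD, n = 3) over the wild type libraries and 26.3 ± 0.631 CPM (SD, n = 3) over the mutant libraries, with a log2FC of -0.13 (adjusted p = 0.85 in edgeR). The next gene on the same strand, *lid-1*, which lies 1092 bases away, had a log2FC of -0.02 (adjusted p = 1.00 in edgeR). Neither of these genes around *aha-1* passed the test.

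*egl-9* (WBGene00001178) is found on chromosome V, plus strand, from 10468517 to 10476915, with 7 annotated transcripts. It encodes the prolyl hydroxylase that marks HIF-1 for VHL-1. Its level was 24.8, 30.9 and 32.2 CPM in wild type animals and 98.7, 117 and 135 CPM in *vhl-1* mutants. The groups were far apart, with 3.07 times between the highest wild type and the lowest mutant value. The means were 29.3 ± 3.93 CPM (SD, n = 3) and 117 ± 17.96 CPM (SD, n = 3). The log2FC of *egl-9* was 1.99 (SE 0.16, 95% interval 1.62 to 2.37, adjusted p = 0.0031 in edgeR). It ranked 124 of the 16596 genes by log2FC and passed the threshold in each fit that left out 1 library, with log2FCs from 1.88 to 2.10.

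Inside the span of *egl-9*, and sharing no base with its exons, the annotation places 3 small non-coding genes. *Y32F6B.8*, on the same strand as *egl-9*, had 0, 4 and 1 reads in the wild type libraries and 54, 88 and 59 reads in the *vhl-1* libraries (log2FC 4.98, SE 0.71, adjusted p = 0.034 in edgeR). This call was kept in 1 of the 6 fits that each left out 1 library, where the log2FC lay between 4.29 and 6.52 and the edgeR adjusted p reached 0.17. *Y32F6B.8* passed the expression filter only through its mutant libraries, and its wild type counts were near 0, so the size of its change is uncertain. The piRNA gene *21ur-15622*, on the opposite strand, had 0 reads in each wild type library and 7, 11 and 5 reads in the mutants, and was not tested because of its low counts. *Y32F6B.6* had 1 read in all. The strand setting of the counting is not given in the sources used here, so reads of these genes and of *egl-9* transcripts that retain intron sequence cannot be told apart. The 2 protein-coding neighbors of *egl-9* on the same strand, *chw-1* and *crp-1*, had log2FCs of 0.08 and -0.42 (adjusted p = 1.00 and 0.40 in edgeR).

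*rhy-1* (WBGene00012324) lies on the plus strand of chromosome II, from 9161379 to 9163448, with 1 annotated transcript. It encodes the acyltransferase-like protein named as a regulator of hypoxia-inducible factor. In wild type animals its level was 21.8, 25.6 and 32.3 CPM. In *vhl-1* mutants it was 185.7, 188 and 255 CPM, and the lowest of these was 5.76 times the highest wild type value. The means were 26.6 ± 5.30 CPM (SD, n = 3) and 209.8 ± 39.6 CPM (SD, n = 3). The log2FC of *rhy-1* was 2.98 (SE 0.20, 95% interval 2.50 to 3.46, adjusted p = 0.0014 in edgeR). This was the largest change of the 5 genes and the 51st of all genes tested, and it stayed between 2.82 and 3.14 with a library left out, passing the threshold each time.

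The exons of *rhy-1* share 82 bases, 4.92% of their length, with *W07A12.8* on the opposite strand, which had at most 93 reads in any library. The gene to the left of *rhy-1* on the same strand, 1394 bases away, is *oac-54*, a member of the O-acyltransferase homolog family. *oac-54* had 0.909 ± 0.239 CPM (SD, n = 3) over the wild type libraries and 10.9 ± 1.02 CPM (SD, n = 3) over the mutant libraries, a log2FC of 3.57 (SE 0.24, adjusted p = 0.0013 in edgeR). Both genes thus rose side by side, whereas *T23G7.3*, to the right of *rhy-1*, had a log2FC of 0.16 (adjusted p = 0.80 in edgeR).

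*swan-1* (WBGene00009977) lies on the minus strand of chromosome V, from 13804395 to 13807237, with 1 annotated transcript, and encodes the WD-repeat partner of EGL-9. Its level was 14.3, 21.6 and 21.0 CPM in wild type animals and 16.2, 27.2 and 20.8 CPM in *vhl-1* mutants. The groups overlapped, and the spread within a genotype was the widest of the 5 genes, with a coefficient of variation of 21.4% in wild type animals and 25.9% in mutants. The log2FC of *swan-1* was 0.18 (SE 0.24, 95% interval -0.40 to 0.75, adjusted p = 0.98 in edgeR), and it was -0.03 without the second *vhl-1* library. The interval still held a change of up to 1.68-fold. It left out the 1.88-fold estimate of *aha-1* but overlapped the interval of that gene, 1.54-fold to 2.29-fold. The difference between *swan-1* and *aha-1* was not tested. Its paralog *swan-2* ends 113 bases from *swan-1* on the same strand and had a log2FC of 0.16 (adjusted p = 0.94 in edgeR).

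**Figure D2:**
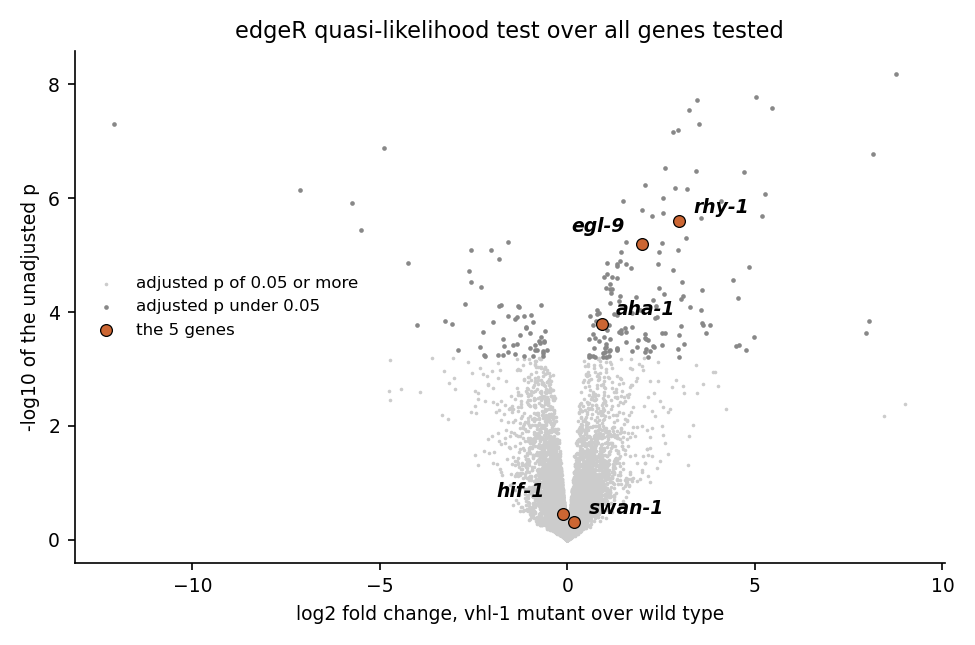
Log2 fold change (log2FC) of *vhl-1* mutants over wild type animals against -log10 of the unadjusted p from edgeR's quasi-likelihood test, for all 16596 genes tested (light gray, darker where the adjusted p is under 0.05) and the 5 genes (orange). *rhy-1*, *egl-9* and *aha-1* lie to the right at 2.98, 1.99 and 0.91, and *hif-1* and *swan-1* lie at the foot of the plot at -0.12 and 0.18.

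The libraries of a genotype shared much of their order across the 5 genes. In both genotypes the first library had the lowest CPM for all 5 genes, and the third had the highest for 3 of them. With library size alone as the scaling, the first library was the lowest for 5 of 5 genes in wild type animals and 4 of 5 in mutants, whereas the third was the highest for 1 of 5 and 3 of 5, and the second wild type library was the highest for 4 of 5. The first libraries were also those with the highest yolk protein sums of their genotype, 17321 CPM in wild type animals and 6354 CPM in *vhl-1* mutants, and the highest oocyte and eggshell sums, 2957 and 2545 CPM. They had the highest sperm sums as well, 503 and 496 CPM, and the lowest larval molting sums, 1445 and 2943 CPM. The part of these markers in the levels of the 5 genes was not tested.

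A ratio of 2 genes within a library does not depend on how the libraries are scaled, and was used to compare the transcription factor subunits with the enzymes of the feedback loop. For every 100 reads on *hif-1*, the wild type libraries had between 10.5 and 12.4 reads on *egl-9* and the mutant libraries between 44.0 and 60.7. For *rhy-1* the same numbers were 9.19 to 12.1 in wild type animals and 70.6 to 115 in mutants. In the third *vhl-1* library there were thus more reads on *rhy-1* than on *hif-1*. These counts are not divided by exon length. Divided by it, *rhy-1* was above *hif-1* in every mutant library (111 to 153 against 70.1 to 90.0 CPM per kb). The mean log2 ratio of *egl-9* to *hif-1* rose from -3.11 ± 0.13 to -0.99 ± 0.24 (SD, n = 3 each), a difference of 2.11, and that of *rhy-1* to *hif-1* rose from -3.26 ± 0.20 to -0.15 ± 0.35 (SD, n = 3 each), a difference of 3.11.

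Relative to *aha-1*, which itself was higher in mutants, the enzymes rose by less. The log2 ratio of *egl-9* to *aha-1* differed by 1.08 between the genotypes and that of *rhy-1* to *aha-1* by 2.07. Between the subunits, reads on *aha-1* per 100 reads on *hif-1* went from 6.41 to 7.38 in wild type libraries to 12.3 to 15.4 in *vhl-1* libraries, a difference of 1.04 in the log2 ratio. Between the enzymes, the libraries of wild type animals had 82.8 to 100.2 reads on *rhy-1* per 100 reads on *egl-9* and those of mutants 161 to 190, a difference of 0.99. All 6 pairs among the 4 genes were compared, and in each the 3 mutant ratios lay above the 3 wild type ratios (two-sided exact permutation test, p = 0.1 for each pair and 0.1 after adjustment over the 6 pairs). This is the smallest p that 3 libraries against 3 allow, so none could pass 0.05. In each pair the gene with the larger log2FC was the numerator, so the shared direction follows from this order. The 6 ratios come from 4 genes and are not independent.

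**Figure D3:**
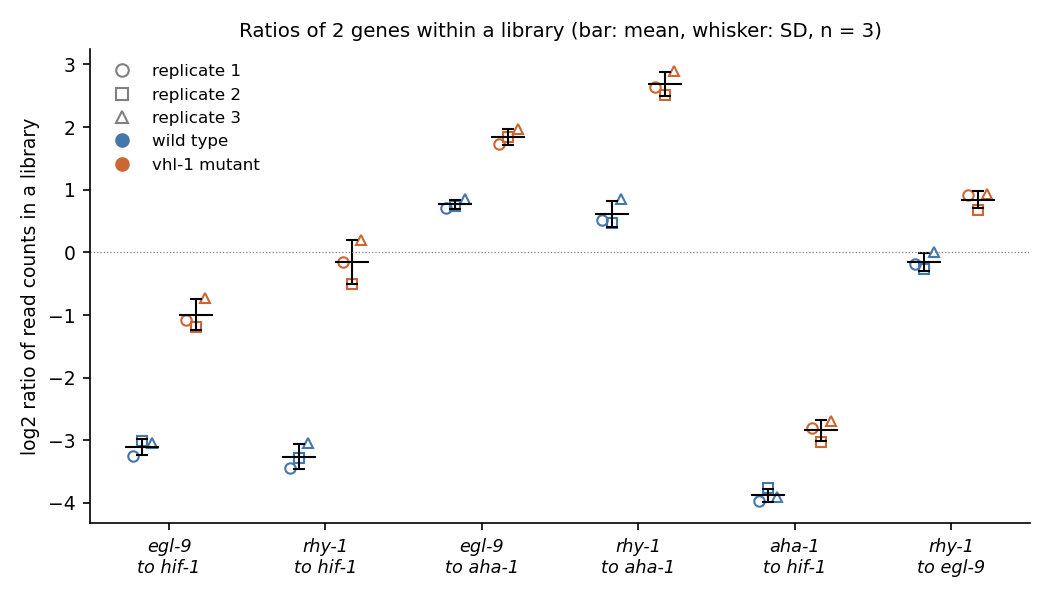
Log2 ratio of the read counts of 2 genes within each library, for 6 pairs, with wild type animals in blue, *vhl-1* mutants in orange and bars for mean ± SD (n = 3). The numerator is the gene with the larger log2FC in each pair. The mutant ratios lie above the wild type ratios in each pair, with differences of means from 0.99 (*rhy-1* to *egl-9*) to 3.11 (*rhy-1* to *hif-1*).

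To compare levels between genes, CPM was divided by the length of the annotated exons, which lay between 1556 bases for *swan-1* and 3396 bases for *egl-9*. In wild type animals *hif-1* stood alone at the top with 84.9 ± 4.91 CPM per kb (SD, n = 3), 5.33 times the level of *rhy-1* with 15.9 ± 3.18. The levels of *swan-1* (12.2 ± 2.604), *aha-1* (10.7 ± 1.09) and *egl-9* (8.64 ± 1.16) followed, in CPM per kb. The ranges of neighbors in this order overlapped from *rhy-1* down to *egl-9*, whereas the range of *rhy-1*, from 13.1 to 19.3 CPM per kb, overlapped neither that of *aha-1* (9.48 to 11.5) nor that of *egl-9* (7.32 to 9.48).

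In *vhl-1* mutants the order was another. *rhy-1* was the most highly expressed of the 5 genes with 126 ± 23.7 CPM per kb (SD, n = 3), 1.61 times the level of *hif-1* with 78.4 ± 10.4. *egl-9*, the last of the 5 in wild type animals, took the third place with 34.4 ± 5.29 CPM per kb, ahead of *aha-1* with 20.2 ± 1.42 and *swan-1* with 13.7 ± 3.56. No 2 neighbors in this order overlapped in their ranges. The order was the same in both genotypes when the longest transcript was used for the length.

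**Figure D4:**
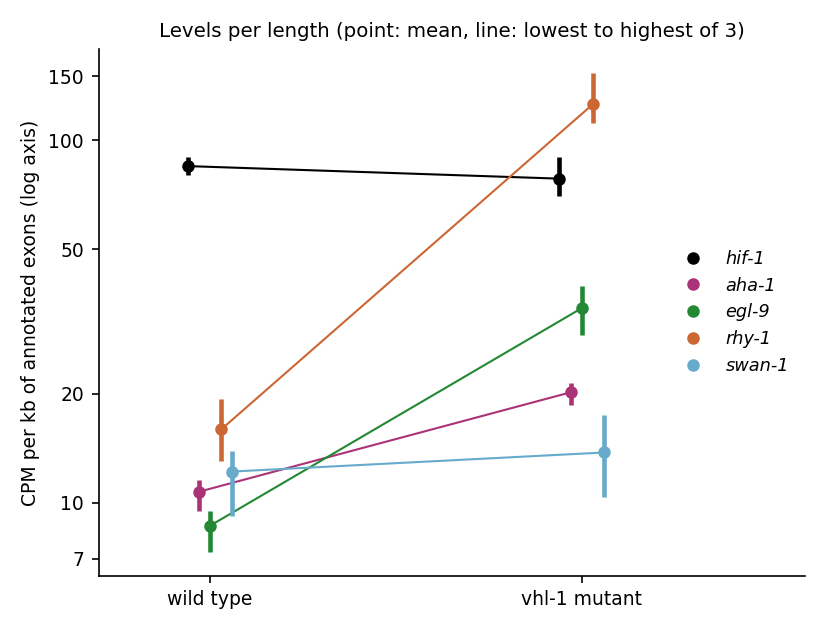
CPM per kb of annotated exons (log axis) of the 5 genes in wild type animals and *vhl-1* mutants, with points for the mean and vertical lines from the lowest to the highest of 3 libraries. *hif-1* lies at 84.9 and 78.4, while *rhy-1* goes from below it (15.9) to above it (126) and *egl-9* moves from the last to the third place (8.64 and 34.4).

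Among the other genes between oxygen and HIF-1, only *vhl-1*, the mutated gene, passed edgeR's test. Its call follows from the genotype. Of 6 genes listed for the VHL-1 ligase and CYSL-1, 0 were higher and 1, *vhl-1*, was lower in edgeR's test, with a median log2FC of 0.05 beside 0.01 over all genes tested. Of all genes tested, 0.874% were higher and 0.374% lower. The cullin *cul-2*, the elongin genes *elc-1* and *elb-1* and the RING protein gene *rbx-1* had log2FCs from -0.04 to 0.07 (adjusted p of at least 0.99 in edgeR). *cysl-1*, whose protein binds EGL-9, had 66.5 ± 7.48 CPM (SD, n = 3) over the wild type libraries and 98.2 ± 7.35 CPM (SD, n = 3) over the mutant libraries, with groups that did not overlap. Over all genes tested, 14.4% had groups that did not overlap. The log2FC of *cysl-1* was 0.56 (SE 0.11), which missed the threshold (adjusted p = 0.084 in edgeR). It also missed with limma-voom (adjusted p = 0.081) and with a replicate term in edgeR (adjusted p = 0.089). It passed with DESeq2 (0.55, adjusted p = 0.0096) and with edgeR on library size alone (0.60, adjusted p = 0.044). With 1 library left out, *cysl-1* passed in 0 of the 6 fits, with edgeR adjusted p from 0.11 to 0.37.

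Relatives of the 5 genes by protein family were listed as well. Among 10 listed genes, of which 9 were tested, 1 was higher and 0 were lower in edgeR's test, or 11.1% beside 1.25% of all genes tested. The PAS protein genes *ahr-1* and *cky-1*, which share the fold of HIF-1 and AHA-1, had log2FCs of 0.30 and 0.41 (adjusted p = 0.88 and 0.95 in edgeR), and *hlh-34* was too weakly expressed to be tested. *nrf-6* and *ndg-4*, acyltransferase genes of the same family as *rhy-1*, had negative log2FCs of -0.48 and -0.50 (adjusted p = 0.17 and 0.37 in edgeR), with mutant libraries below wild type libraries in both. The acyltransferase homolog *oac-54* beside *rhy-1* was not among the listed genes and went the other way, with a log2FC of 3.57 (adjusted p = 0.0013 in edgeR). Among the collagen prolyl hydroxylase genes, *phy-2* rose with a log2FC of 2.40 (SE 0.30, adjusted p = 0.021 in edgeR), and *dpy-18*, *phy-3* and *phy-4* had values of 0.61, 0.03 and -0.28 (adjusted p of at least 0.24 in edgeR). In *phy-2* and *dpy-18* the mutant libraries lay above the wild type libraries. Over all genes tested, the groups did not overlap in 14.4%, counting both directions. *phy-2* is also a known HIF-1 target. Its call was kept in 2 of the 6 fits that each left out 1 library, where its log2FC lay between 2.13 and 2.56.

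Known targets of HIF-1 outside the 5 genes were listed from general knowledge, with earlier results of these data in view. Of these 11 genes, 9 passed edgeR's test as higher and 0 as lower, beside 0.874% and 0.374% of all genes tested. Their median log2FC was 2.55, beside 0.01 over all genes tested. The log2FCs of *egl-9* (1.99) and *rhy-1* (2.98) lay on either side of this median. The largest were those of *sqrd-1*, the sulfide quinone oxidoreductase gene, with 5.02, and *F22B5.4* with 4.72. *nhr-57*, a nuclear receptor gene widely used as a reporter of HIF-1 activity, rose by 3.51 (SE 0.13), and *rips-1* rose by 3.46. The smallest change past the threshold was that of *efk-1*, the elongation factor kinase gene, with 0.86, close to the 0.91 of *aha-1*. *cysl-2* had a log2FC of 2.04 that missed the threshold (adjusted p = 0.051 in edgeR) but passed it with DESeq2 (adjusted p = 2.06e-07), with limma-voom (0.044) and with edgeR on library size alone (0.042). *cdo-1*, the cysteine dioxygenase gene, had -0.02 (adjusted p = 1.00 in edgeR). With 1 library left out, *sqrd-1*, *F22B5.4*, *nhr-57*, *ethe-1* and *rips-1* passed in each of the 6 fits. The genes *fmo-2*, *cah-4* and *efk-1* passed in 4, 3 and 2 of these fits, *phy-2* in 2 and *cysl-2* in 1. Without the third *vhl-1* library 5 of the 11 genes passed, and without the second or the third wild type library 6 passed. In these 3 fits the share of all genes that passed also fell, to 0.294%, 0.288% and 0.44%.

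**Figure D5:**
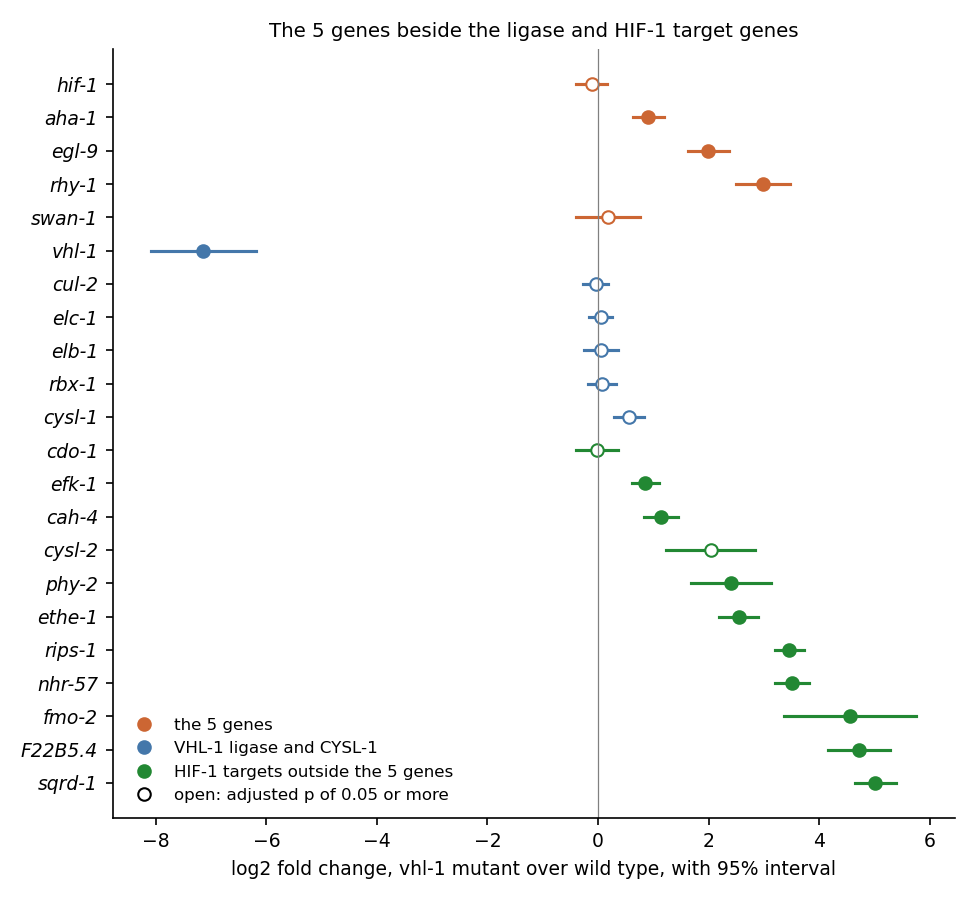
Log2 fold change (log2FC) of *vhl-1* mutants over wild type animals with its 95% interval from edgeR, for the 5 genes (orange), the VHL-1 ligase and CYSL-1 (blue) and 11 HIF-1 targets (green), filled where the adjusted p is under 0.05. *egl-9* (1.99) and *rhy-1* (2.98) lie within the range of the targets, *aha-1* (0.91) beside *efk-1* (0.86), and *hif-1* (-0.12) among the ligase genes.

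Finally, genes with a pattern like each of the 5 were sought over the 6 libraries, as the smallest root mean square difference of centred log2 CPM among 13463 genes. The difference between the genotypes is part of this measure, so similar log2FCs of the genes found follow from the choice. The 3 genes most like *rhy-1* were *dod-24* (difference 0.19), *C32H11.4* (0.21) and the chemoreceptor family gene *srx-125* (0.25), with log2FCs of 2.82, 3.25 and 3.20. Those most like *egl-9* were *dct-17* (0.16), the cysteine synthase-like gene *cysl-3* (0.17) and the astacin protease family gene *nas-28* (0.19), with log2FCs of 2.08, 2.04 and 2.08. *rhy-1* and *egl-9* themselves differed by 0.51. For *aha-1* the nearest genes were *ctsa-2* (0.06), *taap-1* (0.08) and *ZK105.12* (0.08), with log2FCs of 0.96, 0.78 and 0.96. Only 5 genes lay within 0.1 of *aha-1*, and 0 within 0.1 of *egl-9* or *rhy-1*. Over all genes tested, 3.29% had a log2FC above that of *aha-1*, so few genes could lie near *egl-9* or *rhy-1*. For *hif-1* 937 genes did, *mtm-5*, *T01G1.4* and *vha-6* being the nearest (0.02 each), and for *swan-1* 153 did, with *ceh-89* (0.02), *Y73F8A.5* (0.03) and *ebax-1* (0.04) in front.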

How the data were processed

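RNA-seq libraries of 3 wild type and 3 *vhl-1* mutant samples were used. The authors trimmed single-end reads with Trim Galore 0.4.3.1, aligned them with STAR 2.6.0b, counted them with featureCounts 1.6.3 and deposited the raw count of reads per gene, 1 set per library. Genome build, annotation, strand and multi-mapping settings are not given in the sources used here. Each set ends with 1 blank row without reads, which was left out.

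Symbols, positions and exon lengths came from Ensembl release 115 of WBcel235 (46603 of 46778 identifiers matched). Genotypes were compared with edgeR 4.0.16 under R 4.3.3 (filterByExpr, TMM, quasi-likelihood test on genotype, Benjamini-Hochberg adjustment over 16596 genes, threshold 0.05). Standard errors and 95% intervals were derived from edgeR's F statistics. CPM levels and ratios were compared by two-sided exact permutation tests over 20 arrangements (scipy 1.17.1). Log2 CPM used a prior count of 2, and genes compared for likeness had a mean of at least 1 CPM and a symbol.

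The text names the 5 genes, *vhl-1*, their neighbors, listed pathway genes and the 3 most similar genes each. Genes and lists were chosen with earlier results of these data known. Neighbors were looked up after the values were seen. Alternatives were DESeq2 1.42.0, limma-voom (limma 3.58.1), other scalings and filters, a replicate term, a threshold of 0.01, and each library left out in turn. The tests were checked on simulated counts, in which 200 genes were changed by a log2FC of 1. Of the calls made there, 4.26% were false with edgeR, 9.6% with DESeq2 and 2.76% with limma-voom. The share of false calls was thus highest with DESeq2. Of the changed genes, edgeR recovered 90%, DESeq2 89.5% and limma-voom 88%. Replicates of a genotype differed by more than sampling noise (chi-square per gene of at least 45.8, where noise gives about 1). Counting errors do not cover amplification.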

Additional observations from a re-analysis of the deposited data

How the results depend on the processing

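*egl-9* and *rhy-1* kept their direction and passed the threshold in all 14 alternative fits, and *hif-1* kept its direction and missed it in all 14. *aha-1* passed in 9 of 14. With a library left out its log2 fold change lay between 0.83 and 0.97, and it missed the threshold in 5 of these 6 fits, with edgeR adjusted p from 0.061 to 0.17. *swan-1* ranged from -0.035 to 0.34 in the same 6 fits and missed the threshold in every fit, its sign turning without the second *vhl-1* library. The cause was not tested.

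The 207 genes past the threshold (145 higher, 62 lower) became 653 with DESeq2 (337 and 316) and 65 at an adjusted p under 0.01 (52 and 13). Without a filter 97 genes were lower. With a library left out there were 49 to 161 genes, 39 to 101 of them higher and 10 to 60 lower. Fewer libraries were fitted there. For the other changes the cause was not tested.

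Replicate numbers did not clearly pair all libraries: libraries with the same number deviated from their group means with a correlation of 0.55, 0.44 and -0.016. Between libraries with unlike numbers the correlation lay between -0.48 and 0.23. With a replicate block edgeR gave 354 genes (227 higher, 127 lower) and DESeq2 909 (488 and 421), and no call among the 5 genes changed. Among the listed genes, the block in edgeR and DESeq2 gave 3 and 4 yolk protein genes, 10 and 10 of the 11 HIF-1 targets, and 1 and 4 family relatives, and DESeq2 gave 1 molting gene.

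The 5 genes had 889 reads or more per value, so that counting error was at most 3.35%, while the spread between libraries of a genotype was larger for each gene. Reduced depth was not tested.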
